A study of Mus musculus with 2 samples.

Results

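The 6 genes described here encode proteins of the nuclear lamina and the chromatin beneath it: the lamins Lmnb1, Lmnb2 and Lmna, the lamin B receptor Lbr, and the high mobility group box genes Hmgb1 and Hmgb2. They were chosen by name, and all 6 are among the 15247 genes of the table. They were read in heart cells of C57BL/6 mice aged 20 to 22 months that carry the p16-FDR reporter, in which a FLP recombinase and a diphtheria toxin receptor fused to mCherry report on the p16 gene Cdkn2a. Cells positive for mCherry were sorted and profiled with droplet 3′ single-cell RNA sequencing, in 2 samples of 1 group. Every cell is thus reporter-positive, no comparison group was used here, and the labels do not say whether a library pools animals.

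The lamina is a filament mesh on the inner face of the nuclear envelope. Lamin A/C, the product of Lmna, is abundant in stiff tissue, whereas the B-type lamins stay anchored to the membrane, and the lamin B receptor tethers heterochromatin to them. HMGB1 and HMGB2 are DNA-bending chromatin proteins. Loss of lamin B1 and of HMGB2, and release of HMGB1 from the nucleus, are widely used signs of cellular senescence in cultured cells, and Cdkn2a and Cdkn1a encode the cell cycle inhibitors p16 and p21.

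Promoter windows are shown for 4 of the 6 genes. Hmgb2 and Lbr differed between cell types, and Hmgb1 stands beside its paralog. Lmna is described at length for Cdkn1a, although in the main tests on Cdkn1a only Hmgb2 in macrophages was called among the members. The windows are from RefSeq on GRCm38.p6, run 5′ to 3′ on the strand of the gene, and span 250 bases before to 50 after a start. RefSeq windows were matched for 5 of the 6 genes, 8 windows in all. Capitals mark CCAAT and TTTGAA, each searched on both strands.
Hmgb2, chr8:57511593-57511892, plus strand: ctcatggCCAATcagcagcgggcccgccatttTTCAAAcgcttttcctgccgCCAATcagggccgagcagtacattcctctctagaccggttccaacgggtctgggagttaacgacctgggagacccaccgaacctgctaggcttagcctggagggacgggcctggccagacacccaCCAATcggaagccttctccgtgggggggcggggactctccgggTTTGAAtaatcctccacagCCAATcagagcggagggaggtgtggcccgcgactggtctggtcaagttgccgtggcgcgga
Hmgb1, chr5:149053008-149053307, minus strand: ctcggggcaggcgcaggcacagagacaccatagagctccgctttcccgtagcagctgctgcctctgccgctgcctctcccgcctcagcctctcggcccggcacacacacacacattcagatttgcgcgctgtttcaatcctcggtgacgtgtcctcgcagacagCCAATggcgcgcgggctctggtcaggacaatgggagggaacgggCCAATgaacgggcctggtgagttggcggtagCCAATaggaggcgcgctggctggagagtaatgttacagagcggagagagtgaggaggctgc
Lbr, chr1:181842352-181842651, minus strand: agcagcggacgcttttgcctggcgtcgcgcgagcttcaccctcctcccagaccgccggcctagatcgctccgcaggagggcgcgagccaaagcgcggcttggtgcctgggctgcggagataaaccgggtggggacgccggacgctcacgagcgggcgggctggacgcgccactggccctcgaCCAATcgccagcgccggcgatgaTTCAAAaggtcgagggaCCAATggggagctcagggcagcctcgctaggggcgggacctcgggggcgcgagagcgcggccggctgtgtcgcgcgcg
Lmna, chr3:88503303-88503602, minus strand: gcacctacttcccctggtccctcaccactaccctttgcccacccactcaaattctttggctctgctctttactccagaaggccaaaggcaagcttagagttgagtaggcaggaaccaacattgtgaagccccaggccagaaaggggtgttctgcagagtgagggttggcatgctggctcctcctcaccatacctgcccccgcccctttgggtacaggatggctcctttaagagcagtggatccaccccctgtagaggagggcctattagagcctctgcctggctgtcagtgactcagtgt

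The Hmgb2 window held 4 CCAAT and 2 TTTGAA matches, the Hmgb1 window 3 CCAAT matches, and the Lbr window 2 CCAAT and 1 TTTGAA match. The Lmna window shown held 0 of either. The Lmna, Hmgb1 and Lbr windows lie inside the gene spans given below and do not reach the 5′ ends of those spans. A count of 0 thus covers the window and not every start of the gene. The second RefSeq windows of Lmna and Hmgb1 held 1 and 0 CCAAT, both Lmnb2 windows held 0, and none of these 4 held TTTGAA. The E2F motif (TTTCCCGC, TTTGGCGC, TTTGCCGC or TTTCGCGC, both strands) was in 0 of the 8 windows and in 2.26% of all windows. CCAAT is the core of the NF-Y motif and TTTGAA the core of the cell cycle genes homology region, both known from promoters of cycling-cell genes. Of 32851 mouse windows of the same length, 37.4% held CCAAT, 3.37% held 3 or more, 1.06% held 4 or more, and 17.9% held TTTGAA. A match is a run of letters and not evidence of binding. On GRCm38 the genes lie at chr8:57511907-57515999 (Hmgb2), chr5:149046702-149184489 (Hmgb1), chr1:181815335-181843046 (Lbr), chr3:88480147-88509956 (Lmna) and chr10:80901203-80918245 (Lmnb2), and all are protein-coding.

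The 1426 cells fall into libraries Heart1 and Heart2 by the prefix of their names. Heart1 held 266 cells with a median of 11351.5 UMIs (unique molecular identifiers, counts of captured molecules) and Heart2 held 1160 cells with a median of 8885.5. They shared 0 cell barcodes. A gated fibroblast had at least 4 of 6 collagen-type markers (Col1a1, Col1a2, Col3a1, Dcn, Lum, Pdgfra) and at most 1 of 6 macrophage markers (C1qa, C1qb, C1qc, Csf1r, Lyz2, Cd68), and a gated macrophage the reverse. This gave 204 fibroblasts in Heart1 and 931 in Heart2, and 37 and 204 macrophages, with 25 cells in neither set in each library. Levels are CPM, counts per 1000000 UMIs summed over a cell set of 1 library, with 95% exact Poisson intervals that cover counting error only. Markers of the opposite gate summed to 8.57 and 15.7 CPM in fibroblasts and to 17.3 and 36.2 CPM in macrophages. Genes listed for endothelial cells summed to at most 11.5 CPM in any of the 4 sets, and cardiomyocyte genes to 45.8 and 18.2 CPM in fibroblasts and 130 and 93.2 CPM in macrophages, with all 5 of 5 detected. Pericyte genes (4 of 4 detected) summed to 98.4 and 46.1 CPM and smooth muscle genes (2 of 2) to 216 and 33.3 CPM in fibroblasts, against at most 0.992 CPM in macrophages; the part of these genes in the results was not tested.

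Hmgb2 and Lbr were lower in fibroblasts than in macrophages in both libraries, whereas Hmgb1, Lmna and Lmnb1 did not pass the test. Hmgb2 had 67.8 (58.3 to 78.4) CPM in Heart1 fibroblasts and 60.0 (54.9 to 65.5) in Heart2 fibroblasts, against 167 (127 to 216) and 157 (140 to 175) CPM in Heart1 and Heart2 macrophages. Both fibroblast values were below both macrophage values. The fibroblast to macrophage ratio was 0.406 (0.300 to 0.555) in Heart1 and 0.382 (0.331 to 0.441) in Heart2. In limma on log2(CPM + 5) with library as a block, the difference was -1.28 ± 0.22 (SE, adjusted p = 1.9e-05). Of 8789 genes tested, 43.6% were called at an adjusted p under 0.05 (26.3% higher in fibroblasts, 17.3% lower), so a call here is common. Among the members 5 passed the level filter, a mean of 10 CPM, and 2 of these were called, both lower.

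Lbr, which also carries a sterol reductase activity, had 17.9 (13.2 to 23.7) CPM in Heart1 fibroblasts and 21.5 (18.4 to 24.9) in Heart2 fibroblasts, against 63.4 (39.7 to 96.0) and 43.1 (34.5 to 53.2) CPM in macrophages. The groups did not overlap; 27.3% of genes tested were lower in fibroblasts without overlap. The limma difference was -1.22 ± 0.28 (adjusted p = 0.000585). At an equal depth of 3000 UMIs per cell, Lbr was detected in 7.35% (exact binomial interval 4.17 to 11.8%) of Heart1 fibroblasts and 5.48% (4.11 to 7.14%) of Heart2 fibroblasts, against 21.6% (9.83 to 38.2%) and 14.2% (9.73 to 19.8%) of macrophages. Unthinned, these shares were 21.1% and 16.3% of fibroblasts, against 32.4% and 31.9% of macrophages.

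Hmgb1 had 445 (420 to 471) CPM in Heart1 fibroblasts and 409 (395 to 423) in Heart2 fibroblasts, against 328 (271 to 395) and 308 (284 to 333) CPM in macrophages. The difference of 0.42 ± 0.18 missed the threshold in limma (adjusted p = 0.0588), with a ratio of 1.35 (1.12 to 1.66) in Heart1 and 1.33 (1.22 to 1.45) in Heart2. The last 500 bases of Hmgb1 transcripts match 25 other annotated genes at 98% identity or more over at least 90 bases, and Hmgb2 matches 3. None of these has a row of its own (0 of 25 and 0 of 3), so reads shared with near-identical copies make both levels uncertain.

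Lmna had 536 (509 to 564) CPM in Heart1 fibroblasts and 317 (305 to 330) in Heart2 fibroblasts, against 507 (435 to 588) and 259 (237 to 282) CPM in macrophages. Here the libraries stood further apart than the cell types did. The class difference of 0.18 ± 0.18 was not called (limma adjusted p = 0.441). Heart1 over Heart2 was 1.69 (1.58 to 1.80) in fibroblasts and 1.96 (1.64 to 2.33) in macrophages, log2 differences of 0.75 and 0.96 with 1 library each and no test. Lmna was thus under 2-fold in each cell type and not among the 3.88% and 8.11% of genes at least 2-fold apart there. A 16-gene dissociation stress list summed to 9427 CPM in Heart1 against 3010 CPM in Heart2 fibroblasts, and to 7707 against 2263 CPM in macrophages, and its part in the Lmna difference was not tested.

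The B-type lamins were sparse. Lmnb1 had 6.71 CPM (18 UMIs) in Heart1 fibroblasts and 5.79 CPM (48 UMIs) in Heart2 fibroblasts, against 17.3 CPM (6 UMIs) and 11.4 CPM (23 UMIs) in macrophages. The difference of -0.77 ± 0.40 was not called (limma adjusted p = 0.124). Lmnb2 had 8.94 CPM (24 UMIs) and 4.70 CPM (39 UMIs) in fibroblasts, against 14.4 CPM (5 UMIs) and 11.9 CPM (24 UMIs) in macrophages, and fell below the level filter. Both lamins had few UMIs in every set. At 3000 UMIs, Lmnb1 was in 1.47% (0.304 to 4.24%) of Heart1 fibroblasts and 1.5% (0.824 to 2.51%) of Heart2 fibroblasts, against 2.70% (0.0684 to 14.2%) and 2.94% (1.09 to 6.29%) of macrophages. Unthinned, it was in 5.39% and 4.83% of fibroblasts, against 5.41% and 6.86% of macrophages. No gated set should lack these genes, so free RNA was read from macrophage genes in these fibroblasts at the same depth. Cd74 was in 1.96% (0.537 to 4.94%) of Heart1 fibroblasts and 1.5% (0.824 to 2.51%) of Heart2 fibroblasts. Ctss was in 0 of 204 Heart1 fibroblasts, which allows a share with a UMI of up to 1.47%, and in 0.215% (0.0260 to 0.774%) of Heart2 fibroblasts, under the Lmnb1 share there. In macrophages at this depth Cd74 was at 19559 and 22190 CPM and Ctss at 2153 and 2085 CPM, far above Lmnb1. Their shares therefore set no scale for free Lmnb1 RNA. How much of the Lmnb1 signal is free RNA was not measured.

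**Figure D1:**
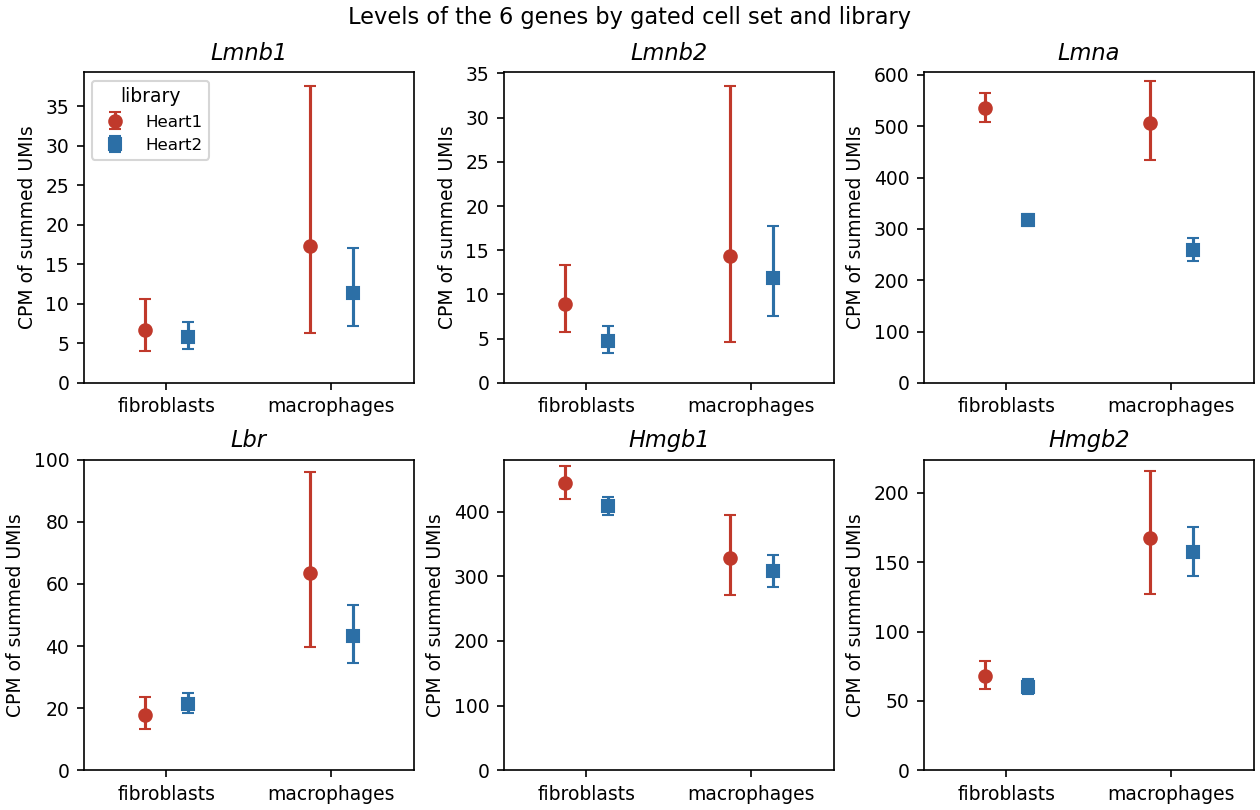
CPM of summed UMIs (vertical axis, from 0) of each of the 6 genes in gated fibroblasts and macrophages, with Heart1 as circles and Heart2 as squares and bars for 95% exact Poisson intervals. Hmgb2 and Lbr are lower in fibroblasts in both libraries, and Lmna separates by library, at 536 and 507 CPM in Heart1 against 317 and 259 CPM in Heart2.

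A few cells held much of the macrophage Hmgb2 and Lmnb1. Cells with a UMI of Mki67 or Top2a, both expressed in dividing cells, numbered 1 of 37 Heart1 macrophages and 10 of 204 Heart2 macrophages, and 1 fibroblast in each library. The Heart1 macrophage held 35 of 58 Hmgb2 UMIs and 5 of 6 Lmnb1 UMIs, and the 10 in Heart2 held 149 of 317 and 14 of 23. Lmnb2 had 2 of 5 and 10 of 24 UMIs in these macrophages, and Lbr was less concentrated, with 3 of 22 and 13 of 87. The 1 such fibroblast in Heart1 held 7 of 18 Lmnb1 and 21 of 182 Hmgb2 UMIs, and that in Heart2 held 0 of 48 and 2 of 498. Without these cells Hmgb2 had 61.2 CPM in Heart1 fibroblasts and 59.9 in Heart2 fibroblasts, against 68.3 and 89.9 CPM in macrophages, and the difference shrank to -0.35 ± 0.23, no longer called (limma adjusted p = 0.259). Lmnb1 then had 4.18 and 5.79 CPM in fibroblasts, against 2.97 CPM (1 UMI) and 4.82 CPM (9 UMIs) in macrophages. Lbr stayed lower in fibroblasts at -1.09 (adjusted p = 0.00446), and Hmgb1 passed the threshold at 0.51 (adjusted p = 0.0193). Leaving out these cells was chosen after seeing the data.

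**Figure D2:**
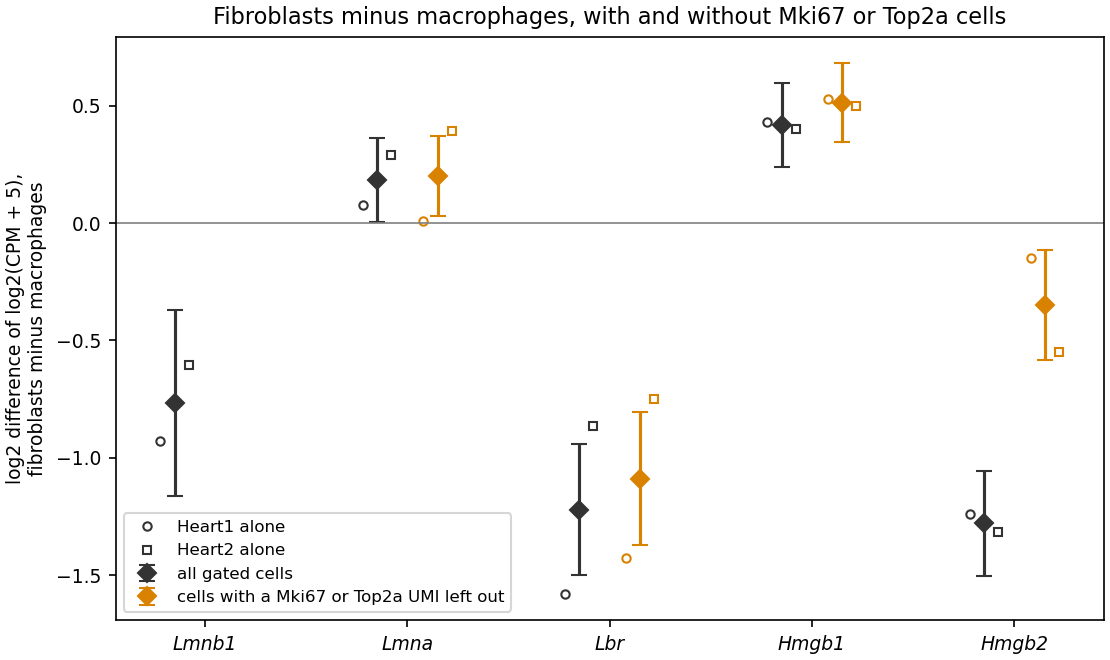
Difference of log2(CPM + 5), fibroblasts minus macrophages (vertical axis), for the members that passed the filter, with all gated cells in black and without Mki67 or Top2a cells in orange; diamonds with bars are the limma estimate ± SE and open symbols the single libraries. Hmgb2 is at -0.35 without those cells and at -1.28 with all cells, Lbr is at -1.09 and -1.22, and Lmnb1 has no second estimate because it fell below the filter.

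**Figure D3:**
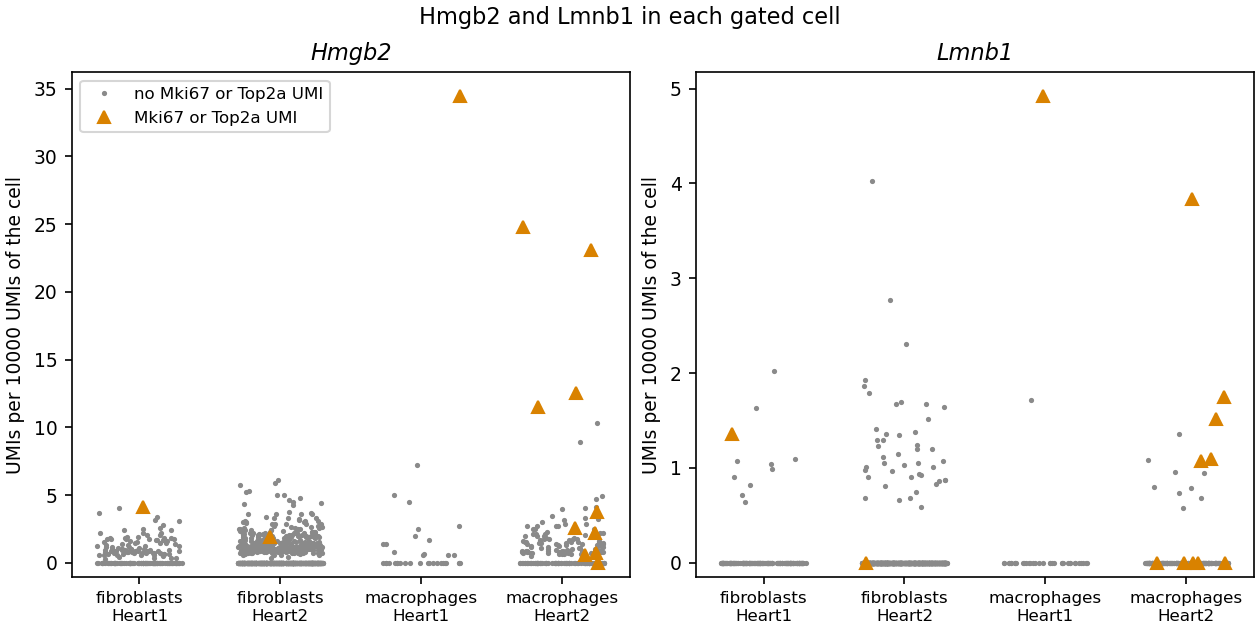
UMIs per 10000 UMIs of the cell (vertical axis) for Hmgb2 (left) and Lmnb1 (right) in each gated cell, by cell set and library, with cells that have a Mki67 or Top2a UMI as orange triangles and the others as grey dots. The highest Hmgb2 values, 34.5 in Heart1 macrophages and 24.8 in Heart2 macrophages, are of such cells.

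Genes that vary with a member across macrophages, ranked by the lower of the Pearson correlations in the 2 libraries, are given as a description with no test (37 and 204 cells, 3186 genes, cells sharing a library and a depth of 3000 UMIs). For Lmnb1 these were Tubb5 (0.452), Hmgb2 (0.437) and Ube2s (0.398), and for Hmgb2 Tubb5 (0.281), Rad21 (0.279) and Ube2s (0.260). At this depth Lmnb1 had 1 UMI in Heart1 and 7 UMIs in Heart2 macrophages, and Lmnb2 had 1 and 6. Their Heart1 correlations thus rest on 1 cell. For Lmna they were Vim (0.447), S100a10 (0.395) and Cdkn1a (0.358). The other members had lower values. These were Fam208a (0.249), Luc7l3 (0.247) and Rgs18 (0.210) for Lmnb2, and Esf1 (0.235), Ndufa10 (0.228) and Rpl13a (0.213) for Lbr. Hmgb1 had Bcl10 (0.238), Trpc4ap (0.230) and Ahr (0.213). In fibroblasts the only values of 0.2 or more were Lmna with Cd9 (0.226) and Tmsb4x (0.207).

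Other genes of the same pathways were counted in the same fit, in which 26.3% of all genes were called higher in fibroblasts and 17.3% lower. Of 22 nuclear envelope genes tested, 0 were higher and 2 lower in fibroblasts, namely Nrm at -1.33 and Tpr at -0.67, with a list median of 0.05 against 0.16 over all genes. Of 16 other HMG and heterochromatin genes, 7 were higher, led by the nucleosome binder Hmgn3 at 3.44 and by the linker histone H1fx, at 29.8 and 39.2 CPM in fibroblasts against 0 and 0.496 CPM in macrophages, and 1 was lower, the histone variant H2afz at -1.49. All 4 tested receptors reported for extracellular HMGB1 were lower in fibroblasts, with Havcr2 at 0 UMIs in fibroblasts of both libraries against 54.7 and 24.3 CPM in macrophages, and the chemokine receptor Cxcr4 at a log2 difference of -2.65. Of 11 cell cycle genes tested, 6 were lower in fibroblasts and 0 higher, with the tubulin regulator Stmn1 at -3.31. Top2a was at 0 and 0.121 CPM in fibroblasts, against 34.6 and 34.2 CPM in macrophages. The 20-gene cell cycle list summed to 766 and 631 CPM in fibroblasts, against 971 and 1096 CPM in macrophages. Without cells with a Mki67 or Top2a UMI, genes that are themselves on the list, it summed to 718 and 631 CPM in fibroblasts, against 567 and 590 CPM in macrophages. In the fit without those cells 7 list genes were tested, 3 lower and 2 higher in fibroblasts; of the 6 called before, 3 were still called, with Stmn1 at -1.71, and the other 3 fell below the filter. Of the 2 nuclear envelope genes 1 was still called and the other fell below the filter, and all 8 HMG and heterochromatin calls and all 4 receptor calls were kept.

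The Lmna level was above that of cells without a Cdkn1a UMI in cells with one, in both cell types and both libraries, but the difference did not pass the test at 3000 UMIs per cell, the equal depth at which status and levels were read. In fibroblasts Lmna had 625 (511 to 757) CPM in 56 Heart1 cells with Cdkn1a and 363 (312 to 419) CPM in 169 Heart2 cells with it, against 410 (353 to 474) CPM in 148 cells and 283 (262 to 306) CPM in 762 cells without it. Within each library the value with Cdkn1a was above the value without it. Before thinning 98 Heart1 and 273 Heart2 fibroblasts had a Cdkn1a UMI, so the cells without it include some that lost theirs in thinning. The limma difference was 0.48 ± 0.15 (adjusted p = 0.0929). Of 8641 genes 1.13% were called (0.555% higher, 0.579% lower) and 28.8% were higher in both libraries. None of the 4 members that passed the filter was called (0 of 4). At 5000 UMIs, a depth that left out 122 cells of the whole table, Lmna was called (0.53, limma adjusted p = 0.0106). It was also called without thinning (0.52, limma adjusted p = 0.0391), where the chance of a Cdkn1a UMI follows the depth of the cell. Over 15 fits the limma adjusted p ran between 0.0106 and 0.998.

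In macrophages Lmna had 667 (443 to 964) CPM in 14 Heart1 cells with Cdkn1a and 413 (308 to 541) CPM in 42 Heart2 cells with it, against 435 (293 to 621) CPM in 23 cells and 189 (153 to 232) CPM in 162 cells without it. Before thinning 19 Heart1 and 76 Heart2 macrophages had a Cdkn1a UMI. The difference was 0.86 ± 0.27 (limma adjusted p = 0.165), and without thinning, where status follows depth, 0.999 (adjusted p = 0.000458). Over 15 fits the limma adjusted p ran between 0.000458 and 0.987. Of 7677 genes 0.443% were called (0.274% higher, 0.169% lower) and 26.3% were higher in both libraries.

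Cells with Cdkn1a also carried more stress RNA: the 16-gene list summed to 14339 and 3836 CPM in fibroblasts with Cdkn1a, against 6937 and 2713 CPM without, and to 10167 and 4000 CPM in macrophages with it, against 6362 and 1553 CPM without. Of the list 10 of 16 genes were called higher in fibroblasts with Cdkn1a, led by Fos at 1.55, and 3 of 16 in macrophages. In fibroblasts limma called 0 of 21 nuclear envelope genes, 0 of 16 HMG and heterochromatin genes, 0 of 2 HMGB1 receptors and 0 of 5 cell cycle genes (2, 1, 0 and 0 at an unadjusted p under 0.05). Over all 8641 genes there, 1.13% were called and 731 had an unadjusted p under 0.05. In macrophages limma called 0 of 21, 0 of 13 and 0 of 5 of the first 3 lists (0, 0 and 1 unadjusted). It called 2 of 15 cell cycle genes higher, the tubulin Tubb5 at 1.24 and Stmn1, which had 429 and 175 CPM with Cdkn1a, against 0 and 80.2 CPM without. Over all 7677 genes in macrophages, 0.443% were called and 424 had an unadjusted p under 0.05. At these shares a count of 0 does not set a list apart. Without cells with a Mki67 or Top2a UMI, limma called 0 of 7 cell cycle genes there (0 at an unadjusted p under 0.05). In cells at or below the median of stress UMIs, Lmna differed by 0.47 in fibroblasts (limma adjusted p = 0.826) and 0.97 in macrophages (adjusted p = 0.987), with as few as 8 cells in an arm, under the minimum of 10 used elsewhere. The part of stress in the Lmna difference was otherwise not tested.

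**Figure D4:**
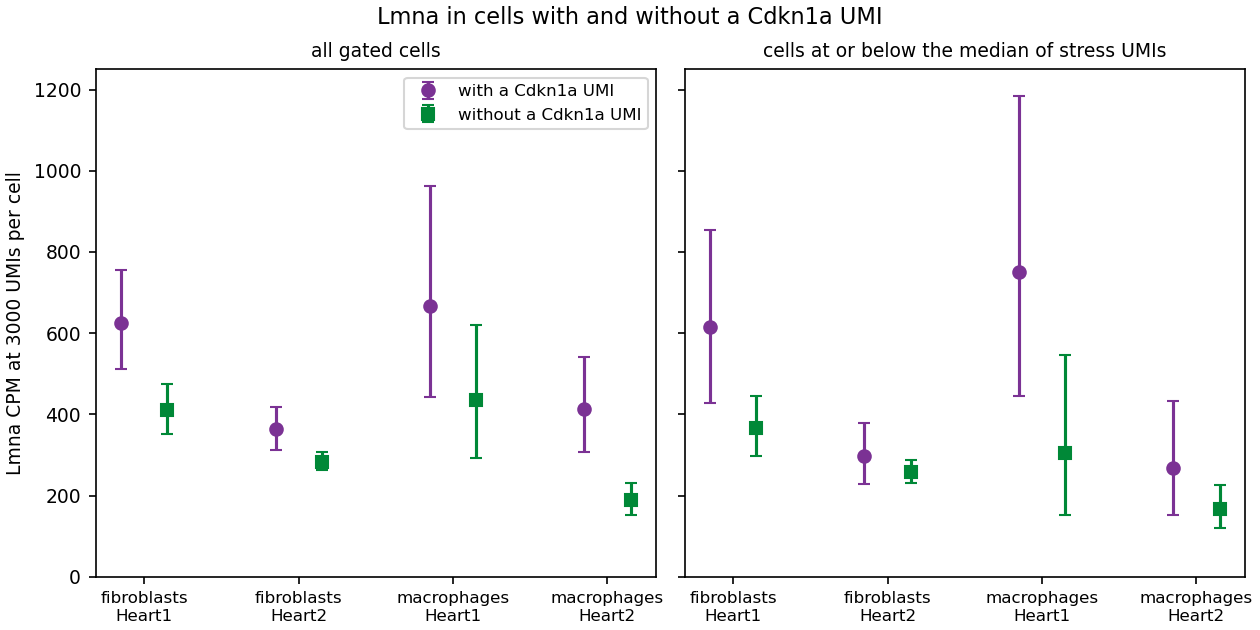
Lmna CPM at 3000 UMIs per cell (vertical axis, from 0) in cells with (purple circles) and without (green squares) a Cdkn1a UMI, by cell set and library, for all gated cells (left) and for cells at or below the median of stress UMIs (right), with 95% exact Poisson intervals. The value with Cdkn1a lies above the value without it in all 4 pairs of the left panel, for example 625 against 410 CPM in Heart1 fibroblasts.

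Of the other members, Hmgb2 in macrophages was called. In fibroblasts Hmgb1, Hmgb2 and Lbr differed by 0.04 ± 0.15, 0.13 ± 0.29 and 0.07 ± 0.44 (limma adjusted p = 0.990, 0.977 and 0.992). Lmnb1 had 0 UMIs in the 56 Heart1 fibroblasts with Cdkn1a, which limits the cells that would show a UMI to at most 5.36% (3 cells of 56), and 1 UMI in the 169 of Heart2, against 4 and 13 UMIs in cells without it. It was under the level filter. In the fit with no filter the difference was -1.05 ± 0.49 (limma unadjusted p = 0.0303, adjusted p = 0.612). The Lmnb1 difference was negative in both libraries and not called. The 95% interval of the Lmnb1 ratio, with over without Cdkn1a, included 1 in both libraries, at 0.00816 to 2.31 in Heart2. Lmnb2, also under the filter, had 1 UMI in Heart1 and 3 in Heart2 with Cdkn1a, against 5 and 8 without it. By CPM it was lower with Cdkn1a in Heart1 and higher in Heart2. Its difference in the fit with no filter was -0.10 (limma adjusted p = 0.975), not called. In macrophages Hmgb2 had 429 and 230 CPM with Cdkn1a, against 87.0 and 126 CPM without, a difference of 1.54 ± 0.36 (limma adjusted p = 0.00835). The difference was 0.51 (limma adjusted p = 0.968) without Mki67 or Top2a cells and -0.07 (adjusted p = 0.986) in a second random draw of UMIs. In low-stress cells it was 2.72 (limma adjusted p = 0.000205), with 8 Heart1 and 20 Heart2 cells in the arm with Cdkn1a. Of these 1 and 3 had a Mki67 or Top2a UMI, against 0 of 12 and 2 of 82 cells without Cdkn1a. Hmgb2 was called in 11 of 15 fits, among them the mean over cells, which repeats the main fit at equal depth. Lmnb1 and Lmnb2 in macrophages differed by 1.49 ± 1.53 and 2.27 ± 1.52 (limma adjusted p = 0.953 and 0.952), on at most 5 UMIs in any set. Of the 6 members tested in macrophages, Hmgb2 was thus the 1 called. The Cdkn1a difference in macrophages minus that in fibroblasts, tested as a limma interaction, was called for 0 of 8770 genes (351 at an unadjusted p under 0.05), and for Hmgb2 it was 1.42 ± 0.57 (adjusted p = 0.837).

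Cdkn2a itself was too sparse for a test, with at least 10 cells per arm in only 1 library of each cell type. Of Heart1 fibroblasts, 34 had a Cdkn2a UMI at 3000 UMIs and 170 did not, and Heart2 had 3 with it. Before thinning 70 Heart1 fibroblasts had one, so the 170 include cells that lost theirs. Lmna had 539 (406 to 702) CPM with Cdkn2a against 455 (398 to 517) CPM without, and Hmgb1 480 (355 to 635) against 426 (371 to 486) CPM. Hmgb2 had 39.2 CPM (4 UMIs) with against 64.7 CPM (33 UMIs) without, and Lbr 0 UMIs with against 15 UMIs without. Lmnb1 had 1 UMI with and 3 without, and Lmnb2 2 with and 4 without. A count of 0 in 34 cells allows a share of cells with a Lbr UMI of up to 8.82% (3 cells of 34), no lower than the share without Cdkn2a, 8.82% of 170 cells. On the log2(CPM + 5) scale 1 of the 5 members that passed the filter, Lbr, was past 2-fold, but no fold can be given against 0 UMIs, and without thinning Lbr differed by -0.37, not past 2-fold. Differences of at least 2-fold were found in 21.2% of 8315 genes.

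Of Heart2 macrophages, 32 had a Cdkn2a UMI and 172 did not, and Heart1 had 9 with it. Before thinning 55 Heart2 macrophages had one, so the 172 include cells that lost theirs. Lmna had 313 (211 to 446) CPM with against 221 (182 to 265) CPM without. Hmgb1 had 271 against 269 CPM, Hmgb2 167 against 143 CPM, and Lbr 52.1 against 50.4 CPM. Lmnb1 had 1 UMI with and 6 without, and Lmnb2 had 0 with and 6 without. None of the 5 members that passed the filter differed by 2-fold or more (0 of 5), against 19.9% of 7655 genes. Lmna differed by 0.49 there, by 0.96 at 5000 UMIs and by 1.01, past 2-fold, without thinning.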

How the data were processed

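Per the labels' protocols, sorted mCherry-positive heart cells were profiled with the 10x Genomics 3′ v3 kit; mm10 and Cell Ranger 3.0.2 are named in the submitters' processing notes. The authors deposited natural log values, ln(1 + UMIs per 10000), for 15247 genes in 1426 cells, per the file values; which tool normalized them and how cells were filtered is not given in the sources used here. UMIs were recovered as whole multiples within 1e-06 for all 4459440 values above 0. Library sums were 3304045 UMIs in Heart1 and 10632723 in Heart2. The libraries are not tied to sample records or animals, so p-values measure a spread that may be technical.

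UMIs were summed per library and cell set and tested with limma 3.58.1 (R 4.3.3) on log2(CPM + 5), with a mean-variance trend, library as a block, a mean of 10 CPM or more and Benjamini-Hochberg adjustment over all genes. For genes of low level this scale makes a change look smaller than it is. With 1 residual degree of freedom, errors rest on spread pooled over genes (27.97 prior degrees for cell sets, and wholly so for Cdkn1a). The block is the library itself, which both cell sets share. Cdkn1a and Cdkn2a status was read after thinning each cell to 3000 UMIs (0 cells left out), and needed 10 cells per arm in both libraries. Scrublet (scanpy 1.11.5) predicted 10 and 3 doublets, which were kept. Near-identical copies were sought with blastn 2.17.0. The tests were checked on simulated data. The named genes are the 6 members, up to 4 called genes of each list by size, and the most correlated genes at 0.2 or more. The members and lists were chosen with earlier results of these data known.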

Additional observations from a re-analysis of the deposited data

How the results depend on the processing

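The libraries limit every result to a pair of sums per cell set, and Lmnb1 and Lmnb2 to a few UMIs. Between fibroblasts and macrophages, Hmgb2 was called in 11 of 12 fits and Lbr in 12 of 12; without Mki67 or Top2a cells Hmgb2 was -0.35 and Hmgb1 0.51. Single libraries gave Lbr from -1.58 to -0.86.

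Without the replicate block, 0 genes were called in limma for Cdkn1a in fibroblasts and 0 in macrophages (122 and 197 at an unadjusted p under 0.05), and Hmgb2 in macrophages was 1.54 ± 0.42 and not called. Differences between libraries are then part of the residual error. The prior degrees were 4.55 in fibroblasts and 7.14 in macrophages, against infinite with the block. The part of each in the lost calls was not tested. Gene counts for Cdkn1a, 98 in fibroblasts and 34 in macrophages, were 12 in fibroblasts in a second thinning draw, 9 and 5 in low-stress cells, 14 in macrophages with a pseudocount of 20 CPM and 125 without thinning. Lmna in fibroblasts was 0.53 at 5000 UMIs and 0.52 without thinning, and in macrophages 0.999 without thinning. In macrophages Hmgb2 was 1.43 with a pseudocount of 20 CPM, -0.0725 in the second draw, 0.51 without Mki67 or Top2a cells, 2.72 in low-stress cells, and from 0.85 to 2.24 in single libraries. In the second draw Lmnb1 and Lbr in macrophages were -2.32 and -0.38, and Lbr was -0.0357 without Mki67 or Top2a cells and from -0.10 to 0.98 in single libraries. In fibroblasts Lbr was -0.92 in the second draw, -0.0905 in low-stress cells and from -0.0466 to 0.19 in single libraries. Hmgb1 was -0.11 at 5000 UMIs, -0.0499 without thinning, -0.24 in the second draw, -0.0553 in low-stress cells and from -0.0537 to 0.13 in single libraries, and Hmgb2 from -0.0662 to 0.32 in single libraries.

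For Cdkn2a, genes at least 2-fold apart numbered 1766 in fibroblasts and 1522 in macrophages; these were 708 and 569 with a pseudocount of 20 CPM, 3533 and 3190 with no filter, 1162 and 784 at 5000 UMIs, 261 and 270 without thinning, and 3747 and 2818 in low-stress cells. In macrophages Hmgb2 was 0.21, against 1.11 at 5000 UMIs, -1.13 in the second draw, -0.67 without Mki67 or Top2a cells and -2.02 in low-stress cells, where Lbr was -3.81. In the tested comparisons 193 of 219 values of members under alternatives kept their direction and call, or stayed within 1 SE where a single library gave no test, and 14 turned sign. This count includes settings that could not move a value. At equal depth the mean over cells repeats the main fit, and leaving out the filter or the block keeps the estimate. For Cdkn2a, with no test, 16 of 122 turned sign, and Lbr in fibroblasts was -0.37 and Lmna in macrophages 1.01 without thinning.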

Other observations

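Cells in neither gated set, 25 in each library, were not compared. In them Lmna had 446 (370 to 533) CPM in Heart1 and 465 (393 to 546) CPM in Heart2, Hmgb2 102 (68.0 to 148) and 37.4 (19.3 to 65.4) CPM, and Lbr 65.8 (39.0 to 104) and 21.8 (8.78 to 45.0) CPM. Of these cells 8 in Heart1 and 2 in Heart2 were predicted doublets.

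At 3000 UMIs per cell, 1 macrophage in Heart2 had a UMI of all 6 genes, and none of the 1135 fibroblasts (0 of 204 and 0 of 931) had more than 4.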
